A study of Mus musculus with 18 samples.

Results

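The transcripts described here are those of immunoglobulin A (IgA) and of the plasma cells that secrete it, together with the receptor that carries IgA across epithelium. They are 7 genes: Igha, Ighm and Igkc, which encode antibody chains, Jchain, Mzb1, Pou2af1 and Pigr. Every probe set whose gene symbols on the array's annotation were or included one of these names was taken, which gave 26 of the 45037 probe sets that are not controls. Igha has 3 of them, Igkc 3, Ighm 15, Pigr 2, and Jchain, Mzb1 and Pou2af1 1 each. The genes were chosen by their measured levels, which had been seen to differ between these groups of arrays, so their levels and differences are given as a description, with no test. A level is the deposited log2 signal of a probe set on 1 array, and a probe set counted as detected when it exceeded log2 4 on at least 3 of the 18 arrays. Of the 26 probe sets, 11 were detected: all those of Igha, Jchain, Igkc and Pigr, and 2 of the 15 of Ighm.

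The arrays came from male mice in 4 groups, in a study of Tlr4, the receptor for bacterial lipopolysaccharide, and of gut bacteria in hepatocellular carcinoma. Normal liver is 3 arrays of liver from untreated C3H/HeOuJ mice with wild-type (WT) Tlr4 at 15 weeks of age. WT tumours are 7 dissected carcinoma lesions of the same strain at 54 weeks, after 100 mg/kg of the carcinogen DEN at week 12 and 6 doses of 0.5 ml/kg of the liver toxin CCl4 from week 13 to week 23. Tlr4-mutant tumours are 5 lesions of C3H/HeJ mice with the P712H change in Tlr4, given the same DEN and CCl4 and killed at the same age. Antibiotic tumours are 3 lesions of WT C3H/HeOuJ mice on that regimen whose drinking water held 1 g/l each of ampicillin, neomycin and metronidazole and 500 mg/l of vancomycin from week 10 to week 54. All 3 tumour groups thus shared DEN and CCl4, and the normal livers had neither. The mutant mice differ from the WT mice in substrain as well as in Tlr4, and these cannot be told apart. A point change such as P712H is not read by probe set levels, so they do not check this label. No source used here states that each array was a separate animal, so SDs and p-values cover the spread among these arrays, and that spread may be technical.

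IgA is the antibody of mucosal surfaces, made by plasma cells that mostly arise in gut-associated lymphoid tissue in response to intestinal bacteria. Plasma cells join IgA molecules with the J chain, and the polymeric immunoglobulin receptor, encoded by Pigr, binds this polymer and carries it through the cell, in rodents from blood through hepatocytes into bile. Plasma cells have also been described within chronically injured liver and liver tumours. Ighm encodes the heavy chain of IgM, the other antibody that holds a J chain, and Igkc the kappa light chain shared by all antibody classes. Mzb1 is a chaperone of the endoplasmic reticulum in B cells and plasma cells, and Pou2af1 (OCA-B) is a coactivator that octamer-binding factors use at antibody genes.

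Promoters were at hand in RefSeq's table (build GRCm38.p6) for 3 of the 7 genes, and are shown because Jchain and Pigr differ in pattern on these arrays, Jchain being dim in normal liver and variable between tumours and Pigr bright on nearly every array. Each run is the 250 bases before the gene's start, read 5′ to 3′, and capitals mark a motif. Jchain lies on the minus strand at chr5:88527898-88528147, Pou2af1 on the plus strand at chr9:51213440-51213689 and Pigr on the plus strand at chr1:130826434-130826683.
Jchain: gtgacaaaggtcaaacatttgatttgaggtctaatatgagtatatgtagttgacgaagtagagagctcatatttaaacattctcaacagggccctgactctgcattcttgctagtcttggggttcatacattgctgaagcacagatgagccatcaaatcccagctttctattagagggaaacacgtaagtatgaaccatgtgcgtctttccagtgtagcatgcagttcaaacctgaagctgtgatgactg
Pou2af1: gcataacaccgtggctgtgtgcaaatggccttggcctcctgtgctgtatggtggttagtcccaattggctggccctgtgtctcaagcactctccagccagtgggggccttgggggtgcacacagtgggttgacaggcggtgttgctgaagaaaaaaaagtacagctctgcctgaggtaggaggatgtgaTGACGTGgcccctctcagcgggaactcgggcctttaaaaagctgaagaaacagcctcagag
Pigr: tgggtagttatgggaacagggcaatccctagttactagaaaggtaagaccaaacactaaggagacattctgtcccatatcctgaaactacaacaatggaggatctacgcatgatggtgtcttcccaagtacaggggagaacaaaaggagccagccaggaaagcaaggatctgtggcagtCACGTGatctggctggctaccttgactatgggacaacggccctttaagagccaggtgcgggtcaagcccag

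On both strands, the octamer ATGCAAAT, bound by the factors that Pou2af1 assists, and TGACGTG, a core bound by the plasma cell factor XBP1, were searched. The octamer was in none of the 3 windows, and it is in 1.6% of the table's 32851 promoters of that length. TGACGTG was in the Pou2af1 window, its first base 61 bases upstream of the start, and is in 1.65% of all promoters. The Pigr window held the E-box CACGTG, which is bound by basic helix-loop-helix factors, with its first base 71 bases upstream. This motif was added after the sequence had been seen, and is in 6.02% of all promoters. The Jchain window held none of the 3.

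Igha, the constant region of the IgA heavy chain, was low in normal liver, variable in WT tumours, high in every Tlr4-mutant tumour and low again in every antibiotic tumour. Its brightest probe set, 1425763_x_at, had levels of 3.95, 5.31 and 4.60 in the normal livers. The 7 WT tumours spanned 2.87 to 9.73 with a median of 8.04. The mutant tumours had 9.26, 11.19, 9.04, 8.37 and 10.96. The antibiotic tumours had 5.60, 5.18 and 5.34. The 3 antibiotic tumours thus lay beside the normal livers and below all 5 mutant tumours, while the WT tumours covered most of the range in between.

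**Figure D1:**
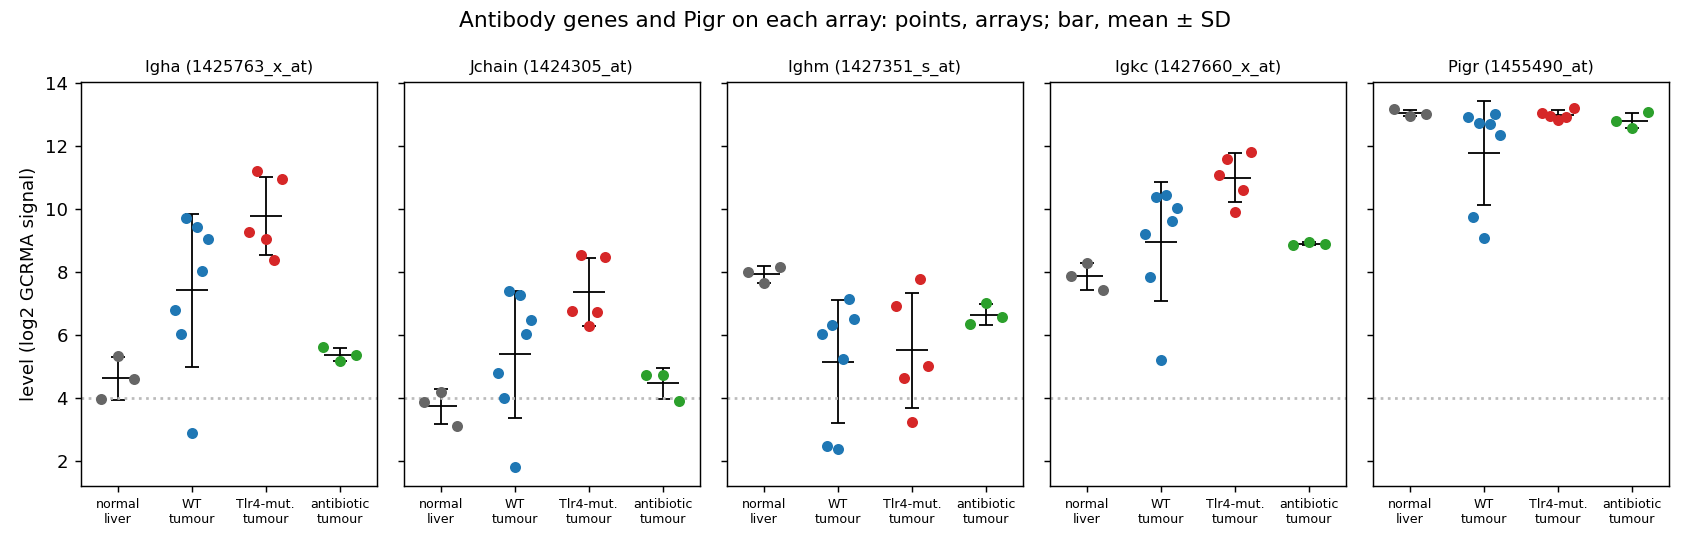
Level of 1 probe set of each of 5 genes on every array, in log2 signal, by group; points are arrays, bars the mean ± SD, and the dotted line log2 4. Igha, Jchain and Igkc are highest in Tlr4-mutant tumours and close together in the 3 antibiotic tumours, Ighm is highest in normal liver, and Pigr is high on all arrays but WT tumours 17 and 19.

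The mean of Igha 1425763_x_at was 4.62 ± 0.68 (SD, n = 3) in normal liver, 7.42 ± 2.43 (n = 7) in WT tumours, 9.76 ± 1.24 (n = 5) in mutant tumours and 5.37 ± 0.21 (n = 3) in antibiotic tumours. Mutant exceeded antibiotic tumours by 4.39 ± 1.17 on the log2 scale (SE, from a fit that pools the spread of all groups), or 21.0-fold. Mutant exceeded WT tumours by 2.35 ± 0.94, and 2 of the 5 mutant tumours lay above every WT tumour. Antibiotic tumours lay 2.04 ± 1.11 below WT tumours (a difference of -2.04), with overlap, since WT tumour 19 was lower than all of them. WT tumours exceeded normal liver by 2.80 ± 1.11: 6 of the 7 were above every normal liver, and WT tumour 19 was below them all. Normal liver and antibiotic tumours, neighbours in the order of levels, overlapped and differed by 0.75 ± 1.31.

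The other Igha probe sets gave the same order. With 1421653_a_at, levels were 3.29, 4.34 and 3.08 in normal liver, 2.56 to 9.42 with a median of 8.02 in WT tumours, 8.86, 10.98, 8.73, 8.13 and 10.77 in mutant tumours, and 5.07, 4.04 and 5.37 in antibiotic tumours. Mutant exceeded antibiotic tumours by 4.66 ± 1.21, or 25.4-fold, with no overlap. With 1429381_x_at all normal livers and all antibiotic tumours were below log2 4, at most 3.60 and 3.84, so a fold is only a bound. The mutant tumours, at 5.74 to 8.90, were at least 9.78-fold above the antibiotic tumours, and the WT tumours, at 3.24 to 7.47, at least 2.95-fold above normal liver on average. All 3 Igha sets end in _x_at or _a_at, which marks probes that may also read related transcripts or several transcripts of one gene.

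Jchain, which encodes the peptide that links IgA and IgM into polymers, had a probe set without such a mark, 1424305_at. Its levels in normal liver were 3.88, 4.19 and 3.11. In WT tumours they ran from 1.79 to 7.39 with a median of 6.02. The mutant tumours had 6.77, 8.55, 6.27, 6.74 and 8.48 and the antibiotic tumours 4.74, 4.74 and 3.89. Every mutant tumour was above every antibiotic tumour and every normal liver, as for Igha. Group means were 3.73 ± 0.56 (n = 3), 5.38 ± 2.01 (n = 7), 7.36 ± 1.07 (n = 5) and 4.46 ± 0.49 (n = 3) in the order normal, WT, mutant and antibiotic. Mutant exceeded antibiotic tumours by 2.90 ± 0.99, or 7.48-fold, mutant exceeded WT tumours by 1.98 ± 0.79, and WT tumours exceeded normal liver by 1.66 ± 0.93. Antibiotic tumours were within the WT range, at a difference of -0.92 ± 0.93.

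The 3 probe sets listed under Igkc name 5 kappa light chain symbols each, among them the variable segments Igkv6-23, Igkv4-53 and Igkv8-30, so they read kappa chains and not the constant region alone. They were detected in normal liver too. The brightest, 1427660_x_at, had levels of 7.86, 8.28 and 7.42 in normal liver and 5.20 to 10.43, with a median of 9.62, in WT tumours. The mutant tumours had 11.09, 11.59, 9.90, 10.59 and 11.80, and the antibiotic tumours 8.85, 8.96 and 8.89. Here 4 of the 5 mutant tumours lay above every WT tumour, and all lay above every antibiotic tumour. The difference between mutant and WT tumours was 2.04 ± 0.71, and between mutant and antibiotic tumours 2.09 ± 0.88, or 4.27-fold.

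In the antibiotic tumours all 3 kappa sets were above every normal liver, while all 3 Igha sets overlapped normal liver. The mean differences from normal liver were 1.03 to 1.21 for kappa. Those of Igha were 0.75 for 1425763_x_at, 1.26 for 1421653_a_at and 0.23 for 1429381_x_at, which was below log2 4 in both groups. The size of the difference thus does not set kappa apart from Igha. Kappa differed little from the WT mean, by -0.06 ± 0.83 for 1427660_x_at, -0.14 ± 0.76 for 1452417_x_at and -0.46 ± 0.93 for 1427455_x_at. Without WT tumours 17 and 19 these differences became -1.03, -0.9999 and -1.62, so that closeness rests on those lesions. Whether the antibiotic-to-WT difference of kappa was smaller than that of Igha was not tested. The dimmest set, 1427455_x_at, separated the mutant tumours most: 7.62 to 10.01 with a median of 9.43, against 3.03 to 8.27 in WT and 5.77 to 6.27 in antibiotic tumours. It exceeded the WT tumours by 2.59 ± 0.79 and the antibiotic tumours by 3.05 ± 0.99.

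Ighm, unlike Igha and Jchain, had its highest levels in normal liver. The detected probe set 1427351_s_at had 7.99, 7.64 and 8.16 in normal liver, 2.38 to 7.13 with a median of 6.04 in WT tumours, 6.90, 4.62, 3.24, 7.77 and 4.995 in mutant tumours, and 6.34, 6.997 and 6.58 in antibiotic tumours. Every WT tumour was below every normal liver, at a difference of -2.78 ± 1.02. The antibiotic tumours were below normal liver too, by -1.29, while mutant and WT tumours overlapped and differed by 0.35 ± 0.87. The mutant tumours with the most Igha, 24 and 27, had Ighm levels of 4.62 and 4.995, and the one with the least Igha, 26, had the highest Ighm of the group. Tumours 23 and 25, with Igha at 9.26 and 9.04, had Ighm at 6.90 and 3.24. Ighm thus did not follow the order of Igha in either direction among the mutant tumours. The other detected set, 1427329_a_at, was 5.82 ± 0.31 (n = 3) in normal liver, 4.66 ± 0.86 (n = 7) in WT, 4.66 ± 1.20 (n = 5) in mutant and 5.25 ± 0.13 (n = 3) in antibiotic tumours. The 13 undetected Ighm probe sets stayed between 1.25 and 4.65, and 2 of their values were above log2 4. Of the 15 Ighm sets 4 also list a variable segment.

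Pigr, the transport receptor, was among the strong signals on nearly every array, and did not follow Igha. The probe set 1455490_at had levels of 13.16, 12.97 and 13.03 in normal liver, 13.06, 12.94, 12.81, 12.92 and 13.20 in mutant tumours, and 12.78, 12.58 and 13.06 in antibiotic tumours. Of the WT tumours 5 were between 12.35 and 13.01, and tumours 17 and 19 were at 9.73 and 9.06. The second set, 1450060_at, was at 8.38 and 8.14 in those WT tumours and at 11.90 to 12.80 on all other arrays. The WT mean was therefore lower than the others: WT tumours differed from normal liver by -1.27 ± 0.69, mutant from WT tumours by 1.21 ± 0.59, and antibiotic from WT tumours by 1.03 ± 0.69, on 1455490_at. Mutant and antibiotic tumours differed by 0.18 ± 0.74, a small value beside the 4.39 of Igha. That SE pools all groups, and the SD was 1.66 in WT tumours but 0.15 in mutant and 0.24 in antibiotic tumours. It is thus wide for the groups compared here. The sets differed for mutant tumours against normal liver. On 1450060_at every mutant tumour was above every normal liver, at a difference of 0.45 ± 0.85, against -0.06 ± 0.74 with overlap on 1455490_at.

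Mzb1 and Pou2af1 were not detected. Mzb1 (1428947_at) was between 2.13 and 3.15 on all 18 arrays and Pou2af1 (1416957_at) between 1.72 and 2.93. All of these levels were below log2 4, so no difference between groups was read for either gene. Pou2af1 averaged 1.86 ± 0.06 (n = 3) in normal liver, 2.11 ± 0.23 (n = 7) in WT, 2.59 ± 0.29 (n = 5) in mutant and 2.15 ± 0.02 (n = 3) in antibiotic tumours, again all below that line.

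WT tumours 17 and 19 stood apart from the rest in several of these genes, and the differences that involve WT tumours were recomputed without them. For Igha 1425763_x_at the excess of mutant over WT tumours went from 2.35 to 1.16, the shortfall of antibiotic tumours from -2.04 to -3.23, and the excess of WT tumours over normal liver from 2.80 to 3.98. For Jchain the same differences became 0.98, -1.92 and 2.65. For Igkc 1427660_x_at they became 1.06, -1.03 and 2.08. For Ighm 1427351_s_at the difference of WT tumours from normal liver shrank to -1.69, and that of mutant from WT tumours turned from 0.35 to -0.73. For Pigr 1455490_at, WT tumours then differed from normal liver by -0.31 and mutant from WT tumours by 0.25, and for 1450060_at the difference from normal liver turned from -1.07 to 0.04. Leaving out WT tumour 19 alone put the mutant excess of Igha at 1.59 and that of Pigr at 0.75. Leaving out the WT tumours does not touch the difference between mutant and antibiotic tumours.

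Over all 26 probe sets, groups that do not overlap were counted beside the same count over all 45037 probe sets. Mutant were above antibiotic tumours without overlap in 8 probe sets and below in 0, where 2.79% and 1.70% of all probe sets did so. The 8 are the 3 of Igha, the 3 of Igkc, Jchain and Mzb1, whose levels were all below log2 4 and are counted here only because the count takes no filter. Mutant were above WT tumours in 1 probe set, 1427870_x_at of Ighm, which was not detected, and below in 0, where 0.582% and 0.602% of all did so. Antibiotic and WT tumours overlapped in all 26, against 1.45% apart and higher and 2.08% apart and lower over all probe sets. WT tumours were above normal liver in 0 and below it in 2, both of Ighm (1427351_s_at and the undetected 1427870_x_at), against 9.55% and 11.1%. Mutant tumours were above normal liver in 9 and below it in 0, against 10.3% and 11.4%. The 9 are the 3 of Igha, the 3 of Igkc, Jchain, Pigr 1450060_at and the undetected Pou2af1. Antibiotic tumours were above normal liver in 4 and below it in 3, against 11.7% and 15.4%. The 4 are the 3 of Igkc and again Pou2af1, and the 3 below are of Ighm, among them the undetected 1427870_x_at. These contrasts were seen when the genes were chosen, so the counts describe the choice. Without the probe sets marked _x_at, _s_at and _a_at, 11 of the 26 remain, and of those mutant were above antibiotic tumours in 2, Jchain and Mzb1. The median difference over the 26 between mutant and antibiotic tumours was 0.34, against 0.01 over all probe sets.

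**Figure D2:**
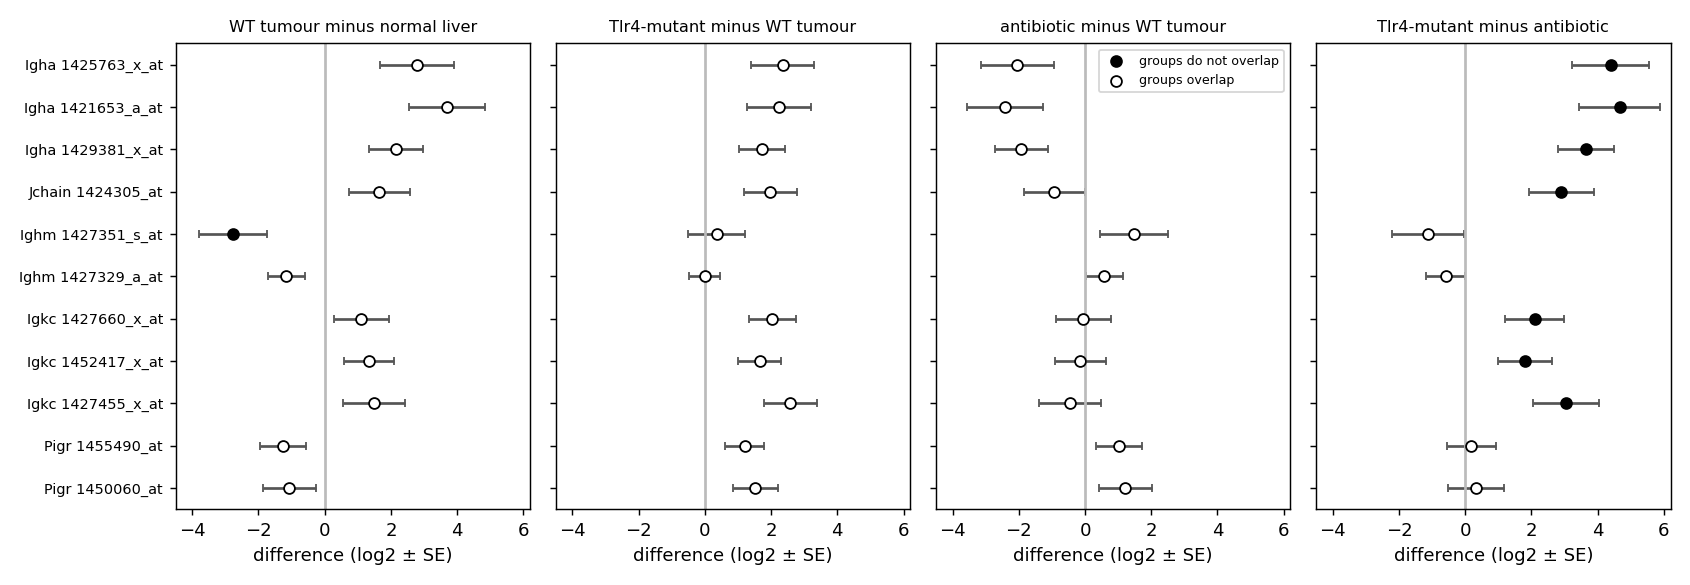
Difference between group means for the 11 detected probe sets in 4 contrasts, in log2 units with the standard error; filled circles mark groups that do not overlap. The difference between mutant and antibiotic tumours is 4.39 for Igha 1425763_x_at and 2.90 for Jchain, while both Pigr sets are near 0 there.

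The Igha, Jchain and kappa transcripts varied together from tumour to tumour. Over the 15 tumour arrays the Pearson correlation of Igha 1425763_x_at with Jchain was 0.98 (Spearman 0.97), and without WT tumours 17 and 19 it was 0.97. Within the 7 WT tumours alone, which share strain and treatment, it was 0.995, and both genes ranked those tumours identically. Igha and Igkc 1427660_x_at correlated at 0.92 (Spearman 0.90) over the 15 arrays and at 0.98 within the WT tumours. These values carry no p, because the genes were chosen together and the pooled arrays include the differences between groups.

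Over the 15 tumours Ighm and Pigr were less closely related to Igha, with values that turned on WT tumours 17 and 19. Igha and Ighm 1427351_s_at correlated at 0.18 (Spearman -0.10) over the 15 tumours and at -0.46 without WT tumours 17 and 19. Igha and Pigr 1455490_at correlated at 0.60 (Spearman 0.37), and at 0.16 without those WT tumours. Ighm and Pigr correlated at 0.72 (Spearman 0.34) and at -0.07 without them, so that relation rests on WT tumours 17 and 19, which were lowest in Pigr and among the lowest in Ighm. Within the 7 WT tumours, which include 17 and 19, Igha correlated with Ighm at 0.78 (Spearman 0.57) and with Pigr at 0.83 (Spearman 0.46).

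**Figure D3:**
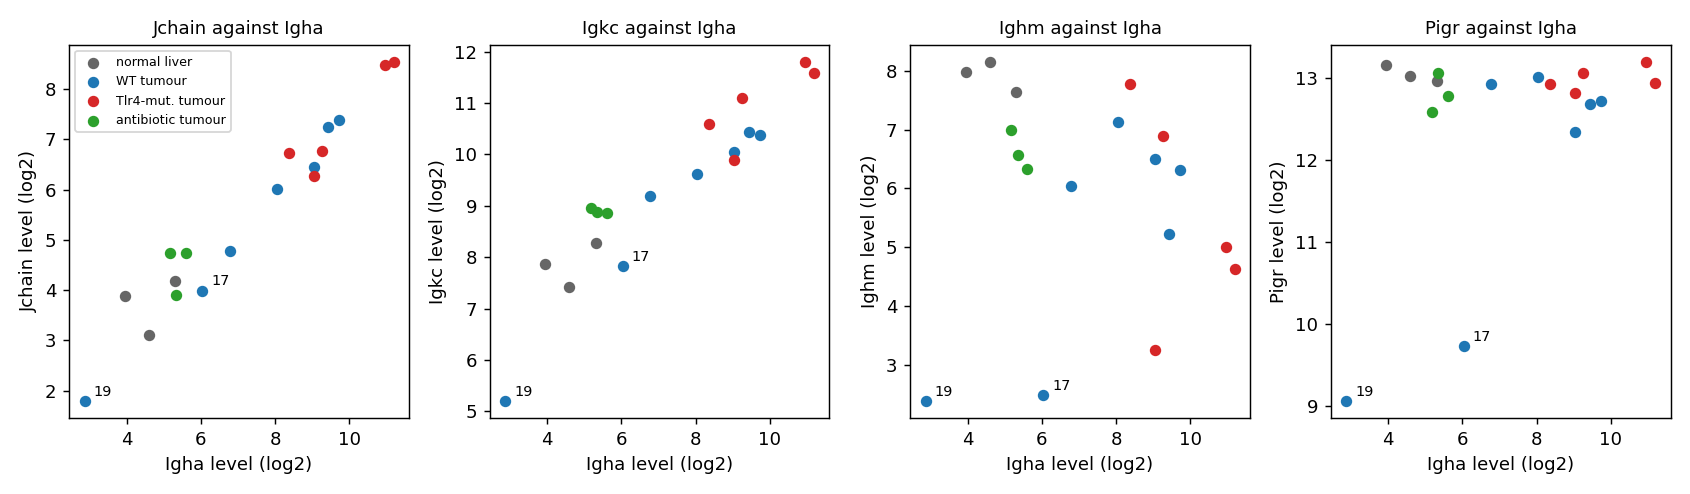
Level of Jchain, Igkc, Ighm and Pigr against Igha on each of the 18 arrays, in log2 signal on both axes, coloured by group, with WT tumours 17 and 19 numbered. Jchain and Igkc follow Igha across arrays, Ighm does not over the 18 arrays, and Pigr is flat apart from WT tumours 17 and 19.

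Among the 9052 other genes of the fit, those whose levels over the 15 tumours were most like Igha were Jchain, Vnn3 (r = 0.96, Spearman 0.94), Igkv8-30 (r = 0.93), Larp1 (r = 0.88) and Errfi1 (r = 0.88), beside a median r of 0.03 over all genes. Vnn3 encodes a vanin, of the pantetheinase family. Its mean was 5.41 in normal liver, 8.56 in WT, 10.07 in mutant and 7.71 in antibiotic tumours, and its r with Igha was 0.95 without the arrays farthest from the median of Igha, WT tumour 19 and antibiotic tumour 29. Without the same arrays r was 0.90 for Igkv8-30, 0.79 for Larp1 and 0.83 for Errfi1. Igkv8-30 is also a symbol of the 3 Igkc probe sets, so its likeness is not separate from theirs. Jchain gave the list Igha, Vnn3 (r = 0.97), Igkv8-30 (r = 0.94), Errfi1 (r = 0.90) and Pdcd4 (r = 0.89). Pigr's closest genes were Slco2a1 (r = 0.97), a prostaglandin transporter, then 1300017J02Rik, Ftcd, Hsd17b13 and Sqor at 0.97 each. All 5 of these relations rest on WT tumours 17 and 19, without which r was 0.41 to 0.57. In the same WT tumours 17 and 19 the urea cycle enzyme Cps1 was at 11.86 and 9.35, against 12.28 to 13.41 on the other arrays, while albumin was at 14.48 to 14.71 on all 18. Ahsg, another hepatocyte gene, was at 14.17 and 14.12 there, within the 13.64 to 14.45 of the other arrays. The macrophage gene Vsig4 was at 2.50 and 4.16 in those lesions, against 5.26 to 9.80 elsewhere. Lyz2, also a macrophage gene, was at 8.76 and 9.53, within the 5.29 to 10.21 of the other arrays. Whether hepatocyte levels or those of other cells in these lesions had a part in the low Pigr was not tested.

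A further 33 probe sets of immunoglobulin genes outside the 7 were on the array, and 31 of them never exceeded log2 4. The detected ones were Igkv8-30 (1452463_x_at), at means of 4.26 in normal liver, 5.25 in WT, 6.96 in mutant and 4.81 in antibiotic tumours, and Ighg3 (1427503_at), whose levels stayed between 3.96 and 4.68. The probe sets of Ighg3 and of lambda chains among them thus stayed near or below log2 4.

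The labelled tissue was checked against markers, and so were the cells that could make antibody. Albumin was near the top of the scale on every array, so it cannot tell normal liver from carcinoma. Of 25 B cell genes 24 are on the array and 2 were detected, Cd74 and Blnk, both of which other cells also express. The defining B cell markers Cd79a, Ms4a1 and Cd79b reached at most 2.36, 3.12 and 3.51. Of 20 plasma cell genes 19 are on the array and 11 were detected, and these are mostly secretory genes that liver expresses too, such as Sdc1 at 11.22 to 11.86. The plasma cell regulators Irf4 and Prdm1 and the receptor Tnfrsf17 reached at most 2.61, 4.04 and 1.71, and the T cell marker Cd3e 2.30. Mzb1 and Pou2af1, above, were undetected likewise. In such bulk tissue, fewer plasma cells and less antibody RNA per cell cannot be told apart.

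The genes around IgA were then tested with limma over 9053 genes with Benjamini-Hochberg adjustment: 194 genes in 11 lists, 183 of them on the array and 92 detected. Between tumour groups 0 of the 92 passed an adjusted p of 0.05 in any of the 3 contrasts. At an unadjusted p under 0.05 there were 7 for mutant against WT, 13 for antibiotic against WT and 8 for mutant against antibiotic tumours, or 7.61%, 14.1% and 8.7% of the 92. Over all 9053 genes that share was 16.7%, 15.5% and 10.3%, higher in each contrast. After adjustment, over all genes 0.265%, 0.0884% and 0.232% passed. No list gene of plasma cell secretion, class switching, homing or IgA transport thus passed between tumour groups. Igha and Jchain were described and not tested, so whether they differ from the list genes in this respect is not known.

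The 11 detected plasma cell genes had a median difference of 0.30 between mutant and antibiotic tumours, with 10 positive, against 0.00 over all genes. Much of this came from antibiotic tumour 30, without which the median was 0.09 with 7 positive. Their gene of smallest p was the cargo receptor Lman1, at 10.38 ± 0.12 (n = 5) in mutant tumours and at 10.38, 10.16 and 9.04 in antibiotic tumours. Its difference of 0.52 became 0.11 without antibiotic tumour 30. St6gal1, which sialylates antibodies and other glycoproteins, differed by 0.61 ± 0.18 between mutant and antibiotic tumours (adjusted p = 0.279).

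The 20 chaperone and unfolded protein response genes had a median of -0.36 between antibiotic and WT tumours, with 1 positive, against 0.02 over all genes. Without antibiotic tumour 30 it was -0.10 with 4 positive. Their smallest p was that of the stress sensor Ern1, at -0.84 ± 0.22 (adjusted p = 0.152), with levels of 9.92, 9.78 and 8.50 in the antibiotic tumours, and its difference became -0.39 without antibiotic tumour 30. Glipr1, a plasma cell list gene also made elsewhere, differed by -2.34 ± 0.70 in that contrast (adjusted p = 0.178) and by -1.49 without the same array. Among regulators of Pigr, the interferon gamma receptor chain Ifngr2 differed by -1.32 ± 0.37 between antibiotic and WT tumours (adjusted p = 0.158). Without antibiotic tumour 29 it passed, at -1.84 with an adjusted p of 0.0424, and without antibiotic tumour 28 it was -0.82. The kinase Yes1, which acts in transport of the receptor, differed by -0.46 ± 0.12 between mutant and WT tumours (adjusted p = 0.144), and the TGF-beta receptor Tgfbr1, of the pathway that directs switching to IgA, by -0.38 ± 0.11 (adjusted p = 0.148).

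WT tumours against normal liver differed far more, 39.0% of all genes having passed, 18.8% higher and 20.2% lower. Of the 92 genes 32 rose and 6 fell. The normal livers also differed from the tumours in age and on the array controls: the 3' minus 5' signal of Gapdh was 1.37 to 1.61 in normal liver and 0.20 to 1.02 in tumours, and the spike-in dap was at 10.53 to 10.60 against 1.24 to 1.91. Tissue, age, RNA quality and labelling cannot be told apart in this contrast, for the members either.

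Of receptors and signals for class switching, 3 of 6 detected genes rose and 1 fell. Tgfbr2 rose from 6.21 ± 1.03 (n = 3) to 11.04 ± 0.64 (n = 7), by 4.82 ± 0.50 (adjusted p = 7.43e-06), and Tgfbr1 by 0.86 ± 0.13. Cd40, which receives T cell help, rose at least 2.49-fold, and Aldh1a1, which makes retinoic acid, fell by 1.09. Of homing genes 4 of 5 rose and 1 fell: the chemokines Cxcl9 by 3.74 ± 0.79 (adjusted p = 0.00206), Cxcl10 at least 3.36-fold and Cxcl13, which draws B cells, at least 2.66-fold, while Cxcl12, which retains plasma cells, fell by 2.20 ± 0.79 (adjusted p = 0.0372).

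Of 11 plasma cell genes 4 rose and 0 fell, Glipr1 at least 8.22-fold, the foldase Fkbp11 by 1.85 ± 0.33 (adjusted p = 0.000743) and Xbp1, the transcription factor of secretory cells, by 0.49 ± 0.15. Of 16 regulators of Pigr 7 rose and 0 fell, with the interferon gamma receptor chains Ifngr2 at least 4.55-fold and Ifngr1 by 2.93 ± 0.35, and the vesicle GTPase Rab3d at least 2.64-fold. Of 12 receptors and handlers of antibody 5 rose and 2 fell, among them Fcer1g, the signalling chain of Fc receptors, by 1.79 ± 0.59, and St6gal1 by 1.47 ± 0.17, against the neonatal Fc receptor Fcgrt, which fell by 1.03 ± 0.29, and the asialoglycoprotein receptor Asgr2, which fell by 1.09 ± 0.25. Of 20 chaperone genes 4 rose, Ddit3 by 2.04 ± 0.57 and Pdia6 by 1.19 ± 0.27 among them, and 2 fell, Ero1b by 1.02 ± 0.27 and Calr by 0.57 ± 0.19.

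Some markers of other cells rose too: 3 of 9 macrophage genes, Lyz2 by 2.99 ± 0.74 and Mpeg1 by 2.73 ± 0.24 among them. So did 1 of 2 detected T and NK cell genes, Ccl5. The macrophage genes did not all move together. Of the 9 differences 6 were positive, with a median of 0.25, and 0 genes fell past the threshold. Cd163, of the same list, was at 4.89, 6.05 and 6.998 in normal liver. In WT tumours it was at 2.97, 2.62, 2.07, 2.66, 2.41, 5.08 and 6.96. The summed log2 level of the 9 macrophage genes was 52.66 to 64.32 in normal liver and 48.58 to 74.23 in WT tumours. Of the B cell genes neither passed, Cd74 differing by 1.97 ± 0.81 (adjusted p = 0.0625). Hepatocyte genes gave 1 rise in 8, Ahsg by 0.58 ± 0.10, and the 1 detected cholangiocyte gene, Sox9, did not pass. The part of these cells in the list results was not tested.

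Some of these calls were lost when 1 array was left out. Without 1 normal liver, whichever it was, adjusted p was over 0.05 for Cxcl12, Aldh1a1, Calr, Fcer1g and Ccl5, reaching 0.103 for Cxcl12 and 0.145 for Ccl5. Without normal liver 1 alone Cd40 (0.0809), Cxcl13 (0.0791) and Ddit3 (0.0502) were lost, without normal liver 1 or 2 Cxcl10 (up to 0.0672), and without normal liver 3 Fcgrt (0.0515) and Xbp1 (0.0827). Cxcl12 was also lost without WT tumour 17, 19 or 20, and Ccl5 without WT tumour 16, 18, 20 or 22 and without several tumours of the other groups.

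**Figure D4:**
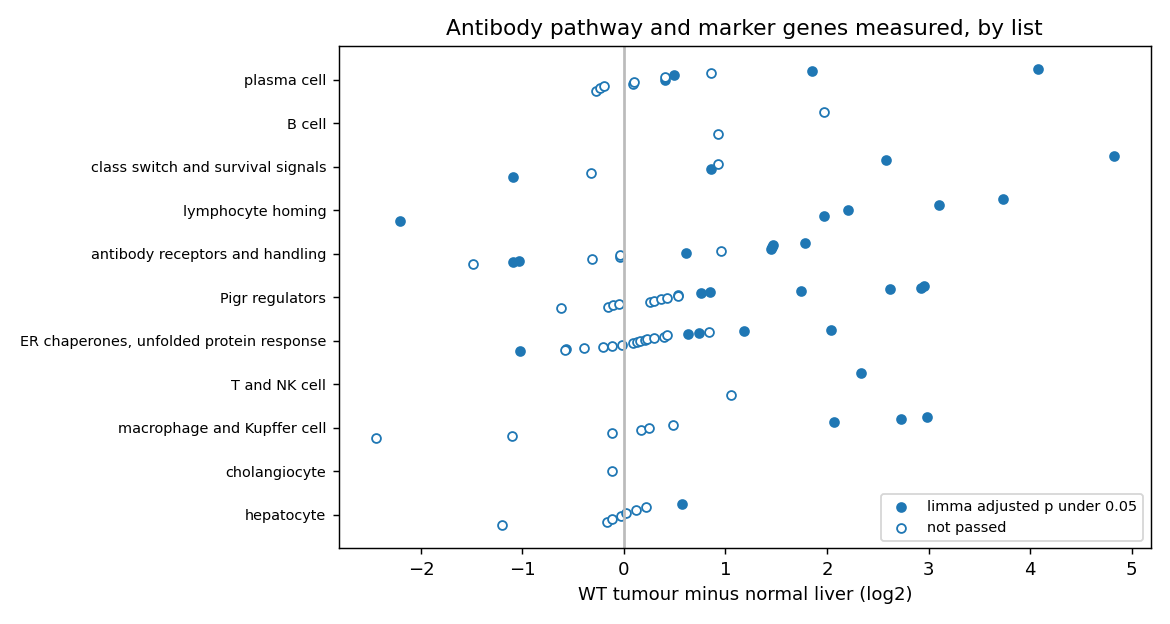
Difference between WT tumours and normal liver, in log2 units, for each detected gene of 11 lists (points; filled where limma's adjusted p is under 0.05). Most filled points lie right of 0, with Tgfbr2 at 4.82 and Cxcl12 the lowest filled point at -2.20.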

How the data were processed

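The deposited values are log2 signals per probe set that the authors made with GCRMA, a background correction and summary of the probes, as the submitters' processing notes name it. The GCRMA version is not given in the sources used here. Of 45101 probe sets 64 controls were left out. Gene names come from GEO's platform annotation, under which 34945 probe sets list 1 symbol, 932 several and 9160 none.

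All 26 member probe sets were described without a filter. Means, SDs and ranges were taken per group, and differences with their SE came from a limma 3.58.1 fit (R 4.3.3) of 4 group means on 18 arrays. The members and lists were chosen with earlier results of these data known. For the 92 detected genes of 11 lists, p-values came from the same model fitted to 9053 genes (log2 above 4 on at least 3 arrays, the probe set of highest mean per gene), two-sided, Benjamini-Hochberg adjusted, with 0.05 as the threshold. A group below log2 4 on every array was set to log2 4 for a fold, given as "at least". Named were up to 3 genes per list and direction among those past the threshold, otherwise at most that of smallest p. Arrays have no read depth, and their number limits the precision. Whether arrays were deposited in duplicate was checked: the highest correlation of 2 arrays was 0.995. The model was tested on simulated data. Alternatives were the filter, the probe set rule, removal of _x_at, _s_at and _a_at sets, scaling, the variance model, the groups fitted and leaving out arrays. Figures used python 3.11.15 and matplotlib 3.10.9.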

Additional observations from a re-analysis of the deposited data

Results flagged for a closer look

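For 5 of the 11 detected member probe sets every Tlr4-mutant tumour lay above the mean of the WT tumours and every antibiotic tumour below it, and this opposite movement was not tested. They are Igha 1425763_x_at, where mutant and antibiotic tumours differed by 4.39 on the log2 scale, Igha 1421653_a_at (4.66), Igha 1429381_x_at (3.64 as measured, or at least 9.78-fold, since every antibiotic tumour was below log2 4), Jchain 1424305_at (2.90) and Igkc 1427455_x_at (3.05). The undetected Mzb1 had the same order at levels that were all below log2 4. Both sets of tumours are measured against the same WT tumours, whose levels of these genes span more than the distance between any pair of group means. In 22 checks, no single array of a member probe set was separated from the nearest array of its group by a gap large enough to be marked. Chance would mark about 1 in 20 of such checks. They cannot mark arrays that lie apart as a pair, such as WT tumours 17 and 19 for Pigr 1455490_at, at 9.73 and 9.06. Nor can 22 checks cover each of the 11 detected probe sets in each of the 4 groups. Jchain in the antibiotic tumours, at 4.74, 4.74 and 3.89, was not marked. The checks thus do not show that no array stood apart.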

How the results depend on the processing

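With WT tumours against normal liver, 38 of the 92 list genes passed. Between 33 and 40 passed under the alternatives of filter, probe sets, scaling, variance model and groups fitted and without WT tumours 17 and 19, and 21 to 40 on leaving out 1 array, the lowest without normal liver 1. The count was 0 under all alternatives for mutant against WT tumours and for mutant against antibiotic tumours, and 0 to 1 on leaving out 1 array for antibiotic against WT tumours, the 1 being Ifngr2 without antibiotic tumour 29. Mutant and antibiotic tumours were apart in 8 member probe sets, in 8 to 11 on leaving out 1 array, and in 2 of 11 without the _x_at, _s_at and _a_at sets. Centring or quantile normalization left that count at 8. Over all genes, 3533 passed for WT tumours against normal liver (2361 to 3994 under the alternatives), 24 for mutant against WT (16 to 34), 8 for antibiotic against WT (0 with only those 2 groups fitted, 32 without antibiotic tumour 29) and 21 for mutant against antibiotic (3 with only those 2 groups fitted, 71 without antibiotic tumour 28). The cause was not tested. Without the _x_at, _s_at and _a_at sets Xbp1 is read by another probe set and no longer passed (adjusted p = 0.911). No paired analysis was possible because the groups share no replicate numbers in the labels. Signal over background limits Mzb1, Pou2af1 and 13 Ighm probe sets, for which no difference could be read.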
